A study of Mus musculus with 12 samples.

Results

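The genes described here are 30 genes of cholesterol synthesis, uptake and transport, listed by symbol and read on bead arrays of whole mouse testis. A gene counted as measured when a probe carrying its symbol was detected, at a detection p under 0.05, on at least 3 of the 12 arrays, and the detected probe with the highest mean stood for the gene. Of the 30 listed genes, 26 had a probe named in the annotation and 23 were measured, out of 11076 measured genes in all. Every measured member was detected on 11 or 12 arrays.

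The study deleted Rb1, the gene of the retinoblastoma protein, in Sertoli cells, which surround and nourish germ cells, by crossing males that carry Cre under the Amh promoter with females that carry floxed copies of Rb1. All testes came from mice aged 10 days, when the first germ cells are entering meiosis. The KO group (labelled SC-RbKO, Sertoli cell deletion of Rb1) held 4 arrays numbered 1 to 4, the HET group (labelled SC-Rb+/-, the heterozygous deletion) held 3 arrays numbered 5 to 7, and the WT group (wild type) held 5 arrays numbered 8 to 12. The labels do not say whether WT mice carried Cre or floxed alleles, nor whether the arrays came from separate mice or litters, so each p-value reflects only how far these 12 arrays spread, which may be technical. Because RNA came from the whole organ, fewer cells of a type and less RNA per cell cannot be told apart in any value below.

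Cholesterol is built from acetyl-CoA through mevalonate and isoprenoid intermediates to squalene, which is closed into lanosterol and then trimmed and reduced to cholesterol. SREBP transcription factors switch most of these enzymes on when membrane sterol is low: SCAP carries SREBP to the Golgi for cleavage, and INSIG proteins hold the complex back in the endoplasmic reticulum when sterol is plentiful. In the testis, Leydig cells turn cholesterol into testosterone, Sertoli cells take up lipoprotein and recycle lipid from germ cells, and germ cells accumulate sterol intermediates of the pathway.

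Promoters of 6 members are printed as examples of genes for which 1 array, HET 6, was an extreme in either direction, as described below, and others were as extreme: Mvk and Mvd, mevalonate enzymes, were at their lowest there, and Cyp51, Msmo1, Nsdhl and Insig1 were at their highest. Each sequence holds the 250 bases before the gene's start, read 5′ to 3′ on the gene's strand, from RefSeq on GRCm38.p6, and capitals mark CCAAT boxes, written ATTGG where the box lies on the other strand. Mvk is at chr5:114444019-114444268, plus strand, Mvd at chr8:122443423-122443672, minus strand, Cyp51 at chr5:4104698-4104947, minus strand, Msmo1 at chr8:64733579-64733828, minus strand, Nsdhl at chrX:72918271-72918520, plus strand and Insig1 at chr5:28071162-28071411, plus strand.
Mvk: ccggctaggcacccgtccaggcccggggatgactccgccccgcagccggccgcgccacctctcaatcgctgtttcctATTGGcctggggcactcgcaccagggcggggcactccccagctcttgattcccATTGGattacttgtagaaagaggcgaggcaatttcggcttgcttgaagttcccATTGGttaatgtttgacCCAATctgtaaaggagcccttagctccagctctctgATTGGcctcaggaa
Mvd: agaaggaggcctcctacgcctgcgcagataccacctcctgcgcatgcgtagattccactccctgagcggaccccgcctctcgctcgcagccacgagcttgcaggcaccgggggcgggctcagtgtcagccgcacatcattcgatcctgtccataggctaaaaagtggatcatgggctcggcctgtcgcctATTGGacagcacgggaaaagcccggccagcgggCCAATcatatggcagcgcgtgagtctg
Cyp51: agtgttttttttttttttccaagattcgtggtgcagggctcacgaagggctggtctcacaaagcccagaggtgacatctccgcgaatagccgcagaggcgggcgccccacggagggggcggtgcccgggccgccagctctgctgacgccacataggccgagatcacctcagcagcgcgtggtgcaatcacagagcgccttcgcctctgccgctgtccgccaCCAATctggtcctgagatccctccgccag
Msmo1: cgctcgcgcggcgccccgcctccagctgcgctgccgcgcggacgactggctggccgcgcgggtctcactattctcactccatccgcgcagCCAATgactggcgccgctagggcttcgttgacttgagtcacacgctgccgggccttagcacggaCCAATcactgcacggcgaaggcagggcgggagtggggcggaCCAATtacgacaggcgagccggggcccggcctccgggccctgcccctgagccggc
Nsdhl: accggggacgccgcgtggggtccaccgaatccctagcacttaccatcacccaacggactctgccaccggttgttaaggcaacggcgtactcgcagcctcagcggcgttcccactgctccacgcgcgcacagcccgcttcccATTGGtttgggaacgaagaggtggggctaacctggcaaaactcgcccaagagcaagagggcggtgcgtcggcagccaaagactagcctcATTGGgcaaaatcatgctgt
Insig1: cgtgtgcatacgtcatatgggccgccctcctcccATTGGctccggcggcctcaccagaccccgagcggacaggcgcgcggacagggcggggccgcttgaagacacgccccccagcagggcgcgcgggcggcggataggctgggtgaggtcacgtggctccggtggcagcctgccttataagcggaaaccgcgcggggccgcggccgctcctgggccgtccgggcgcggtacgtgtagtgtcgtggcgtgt

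The promoter table held 23 of the 30 members. Abcg1, Fdft1, Fdps, Npc1, Scarb1, Sqle and Stard4 were not in it. In the same 250-base window, searched on both strands, a CCAAT box (CCAAT) was present for 20 of 23 members (87.0 percent), against 37.5 percent of all genes in the table, and a GC box (GGGCGG) for 21 of 23 (91.3 percent), against 35.4 percent of all genes. The sterol regulatory element spelled TCACNCCAC was found for 1 of 23 members, Hmgcs1, against 1.22 percent of all genes. A gene counted when any of its promoters matched. Per promoter, the CCAAT box was in 67.7 percent of member promoters and 33.8 percent of all, the GC box in 77.4 and 32.7 percent. Mvk held 5 CCAAT boxes, Msmo1 held 3, Mvd and Nsdhl held 2 each, and Cyp51 and Insig1 held 1 each. These are matches of letters and were not tested.

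Between 39.3 and 43.7 percent of 45281 probes were detected per array. All levels are log2 normalized intensities, and all differences are on that scale. The brighter of 2 Rb1 probes averaged 8.82 ± 0.30 in KO, 9.04 ± 0.22 in HET and 9.07 ± 0.19 in WT (SD), and KO minus WT was -0.26 (limma adjusted p = 1). The array labelled KO 1 read Rb1 at 9.26 and 7.74 on the brighter and dimmer probe, inside the WT ranges of 8.83 to 9.31 and 7.63 to 8.15, while the other 3 KO arrays lay below both ranges and the 3 HET arrays below the range of the dimmer probe. Where these probes lie relative to the deleted part was not examined, and other testis cells also transcribe Rb1, so this does not settle the label, and counts are given below with and without KO 1. Of 10 Sertoli markers, 8 were measured, and Amh, Sox9, Gata4 and Fshr among them were detected on all 12 arrays. Arrays HET 6, HET 7 and WT 12 stood apart from the rest, with an SD of 0.44, 0.37 and 0.30 about the median array over all genes, against 0.17 to 0.24 on the other 9 arrays. Meiotic germ cell markers, 5 of 9 measured, moved with these arrays: relative to the WT mean, HET 6 averaged -1.66, HET 7 averaged 1.65 and WT 12 averaged 1.35 over these markers, which lay between -0.70 and -0.10 on the other 9. Their part in the results below was not tested.

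The question each contrast answers is whether cholesterol genes differ when Sertoli cells lose both copies or 1 copy of Rb1. No member passed the threshold, a limma p adjusted over 11076 genes under 0.05, in KO against WT, HET against WT or KO against HET, and nor did any gene (0 percent of all genes in each). The 3 contrasts share arrays, so their values are given side by side and are not independent. In KO against WT, 0 of 23 members had an unadjusted p under 0.05, where 284 genes (2.56 percent) did. In HET against WT 3 of 23 did, Hsd17b7, Stard4 and Insig1, where 9.77 percent of all genes did, and in KO against HET 4 of 23 did, Mvk, Stard4, Pmvk and Fdps, where 7 percent did. These shares of members were 13.0 and 17.4 percent. The median difference of the 23 members was 0.03 in KO against WT (0.00 over all genes), -0.02 in HET against WT (-0.01 over all genes) and 0.06 in KO against HET (0.01 over all genes).

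The 95% intervals give the range of change that the arrays did not exclude. In KO against WT the member differences ran from -0.20 to 0.22, and the largest fold in either direction was 1.16 for Srebf1 and 0.871 for Sc5d. The interval of Mvd, the least variable member, was -0.08 to 0.28, and that of Nsdhl, among the most variable, was -0.30 to 0.59. Changes within these intervals are not excluded by 4 and 5 arrays, which does not show that the groups were alike. The plot of differences gives all 23 members in each contrast.

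**Figure D1:**
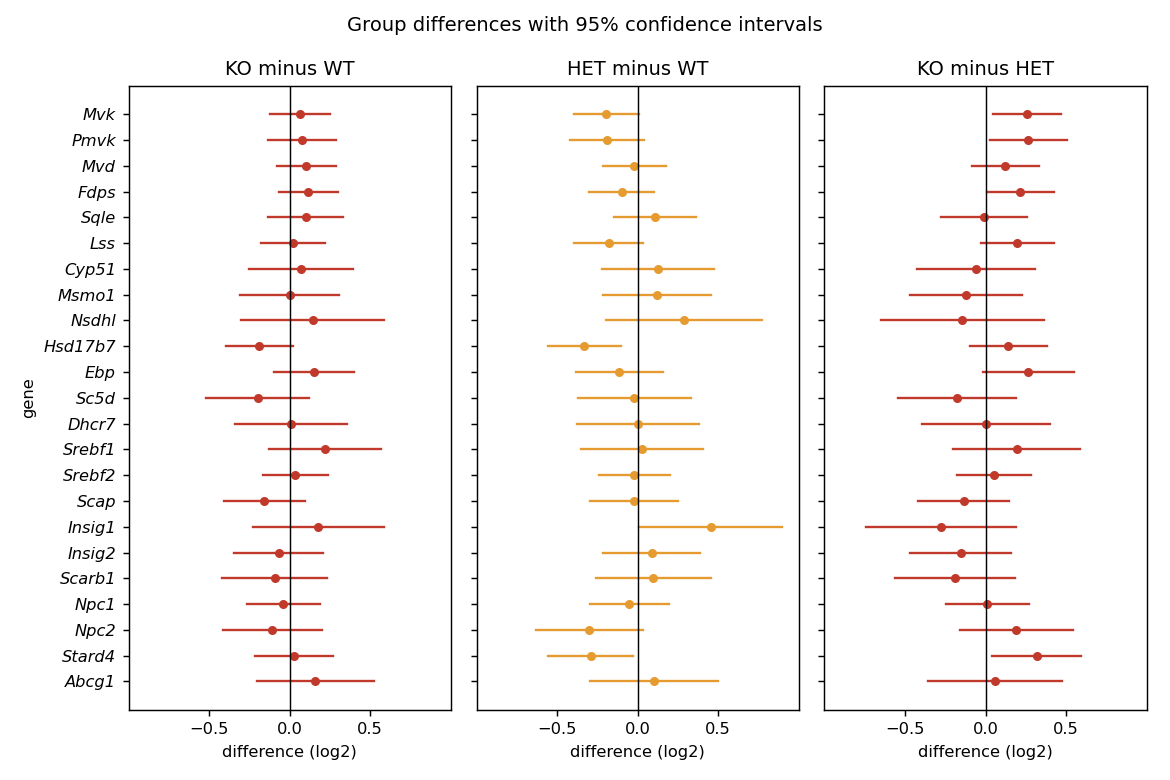
Differences between groups for the 23 measured cholesterol genes, in log2 units on the horizontal axis, for KO minus WT, HET minus WT and KO minus HET. Points are limma estimates and bars their 95% intervals. All KO minus WT intervals cross 0, while 3 HET minus WT intervals and 4 KO minus HET intervals do not, none of them past the adjusted threshold.

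The mevalonate steps make the isoprenoid units, and 4 of their 7 listed genes were measured. All 4 had a positive difference in KO against WT (0.06 to 0.12) and a negative one in HET against WT (-0.19 to -0.02). A positive difference in KO against HET, here 0.12 to 0.27, then follows by arithmetic. Over all genes 50.5 percent had a positive difference in KO against WT and 47.7 percent in HET against WT. The signs of the 4 genes were the same under 3 other normalizations, which kept the same probe per gene. For Mvd the negative sign rested on HET 6, at 8.48. HET 5 and HET 7 read 8.73 and 8.78, above the WT mean of 8.68 and inside the KO range of 8.71 to 8.84. None of the 4 genes passed the adjusted threshold. Of the rest, Idi1, which interconverts the isoprenoid units, had a probe detected on 0 arrays (lowest detection p 0.229), and Hmgcs1 and Acat2, which make the first intermediates, were not analysed here.

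Mvk, mevalonate kinase, read 5.75, 5.53, 5.69 and 5.61 in KO, 5.52, 5.23 and 5.41 in HET and 5.62, 5.49, 5.52, 5.71 and 5.57 in WT. All KO arrays lay above all HET arrays, by the narrow gap between KO 2 and HET 5, and the WT arrays overlapped both groups. The KO minus HET difference was 0.26 (SE 0.10, 95% interval 0.05 to 0.47) with a limma unadjusted p of 0.0209 and an adjusted p of 0.657. HET minus WT was -0.19 (SE 0.09, adjusted p = 0.5), or -0.12 without HET 6.

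Pmvk, phosphomevalonate kinase, adds the next phosphate and read 6.81, 6.71, 6.71 and 6.77 in KO, 6.67, 6.25 and 6.53 in HET and 6.56, 6.87, 6.65, 6.69 and 6.59 in WT. The 4 KO arrays were tightly grouped above the 3 HET arrays, and HET 6 lay far below every other array. KO minus HET was 0.27 (SE 0.11, 95% interval 0.03 to 0.51), with a limma adjusted p of 0.657, and was 0.15 without HET 6.

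Fdps, farnesyl diphosphate synthase, read 11.54, 11.56, 11.64 and 11.57 in KO, 11.43, 11.27 and 11.39 in HET and 11.44, 11.30, 11.58, 11.62 and 11.37 in WT. KO arrays spanned a narrow band above every HET array, whereas WT arrays spread from below the HET mean to near the top of KO. KO minus HET was 0.22 (SE 0.10, 95% interval 0.01 to 0.43) and KO minus WT was 0.12 (SE 0.09), with limma adjusted p-values of 0.657 and 1, and the KO minus WT difference was 0.08 without WT 9. A dimmer second Fdps probe read 6.58, 6.57, 6.95 and 6.69 in KO, 6.73, 6.50 and 6.79 in HET and 6.99, 6.58, 6.88, 7.33 and 6.92 in WT, so the KO mean lay below the WT mean on it, and the average of both probes turned the KO minus WT difference to -0.06. Mvd, the decarboxylase that follows Pmvk, averaged 8.78 ± 0.06 in KO, 8.66 ± 0.16 in HET and 8.68 ± 0.08 in WT, all groups overlapping.

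**Figure D2:**
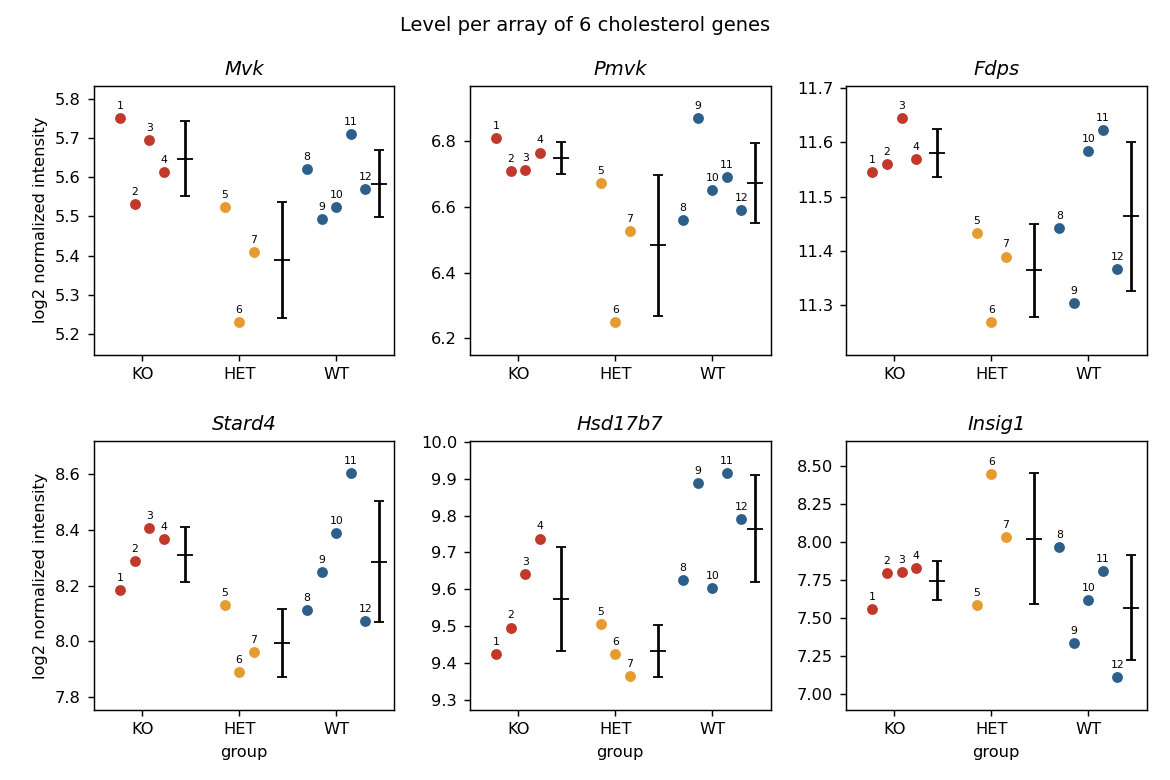
Log2 normalized intensity of 6 cholesterol genes on each array, by group (KO, HET, WT), with the replicate number above each point and the mean ± SD as a black bar. For Mvk, Pmvk, Fdps and Stard4 every KO point lies above every HET point, for Hsd17b7 every HET point lies below every WT point, and Insig1 on HET 6, at 8.45, lies above all other arrays.

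The separation of KO from HET in these genes can be set against all genes. Groups did not overlap for 4 of 23 members in KO against HET, all higher in KO (Mvk, Pmvk, Fdps and Stard4), where 2.93 percent of all genes lay wholly higher and 2.31 percent wholly lower in KO. In HET against WT 1 member, Hsd17b7, lay wholly lower in HET (1.66 percent of all genes) and 0 wholly higher (1.02 percent). In KO against WT 0 members lay wholly higher (1.16 percent of all genes) or wholly lower (0.776 percent). Column names of the unnormalized table carry numbers of unstated meaning. Within the lower and upper 6 of them, the upper holding 1 HET array, the KO minus HET difference of these 4 genes, whose sign is fixed because the groups do not overlap, was 0.26 and 0.24 for Mvk, 0.30 and 0.21 for Pmvk, 0.20 and 0.22 for Fdps, and 0.23 and 0.43 for Stard4.

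The counts of members at an unadjusted limma p under 0.05 turned on which HET array was in the fit. Without HET 6, 1 of 23 members had an unadjusted limma p under 0.05 in KO against HET, Srebf1, where 4.87 percent of all genes did. Without HET 5 it was 8 of 23, where 19.7 percent of all genes did, and without HET 7 it was 4 of 23 (10.3 percent of all genes), of which 2, Mvk and Pmvk, were among the 4 named above. Without KO 1 it was 2 of 23, Ebp and Stard4 (4.76 percent of all genes). Without WT 12, HET 6 and HET 7 it was 1 of 23, Abcg1 (3.49 percent of all genes), but HET 5 is then the only HET array and is assumed to vary as the arrays of the other groups do. In HET against WT the count of 3 became 1 without HET 6 (4.21 percent of all genes), 7 without HET 5 (23.5 percent), 2 without KO 1 (8.31 percent), 2 without WT 12 (9.59 percent) and 1 without WT 12, HET 6 and HET 7 (3.33 percent). In KO against WT it was 0 in each of these fits. No member passed the adjusted threshold in any of them. Leaving out an array cannot add overlap between groups, so counts of non-overlap did not fall in the same way. Without HET 6, 7 of 23 members lay wholly higher in KO than in HET, where 795 of 11076 genes did. Wholly lower lay 0 members and 652 genes.

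The next steps join isoprenoids into squalene and close it to lanosterol. Sqle, squalene epoxidase, averaged 10.70 ± 0.06 in KO, 10.71 ± 0.22 in HET and 10.60 ± 0.17 in WT, and Lss, lanosterol synthase, averaged 8.54 ± 0.11 in KO, 8.34 ± 0.18 in HET and 8.52 ± 0.08 in WT. Neither passed the threshold in any contrast (limma adjusted p of 1 and 1 in KO against WT). The pair parted on HET 6, where Sqle stood at its highest, 10.56, 10.96 and 10.60 in the HET arrays, and Lss at its lowest, 8.32, 8.17 and 8.53. A second Sqle probe read 9.24 in HET 6 and 7.72 to 8.51 on the other 11 arrays. Fdft1, squalene synthase, was not analysed here.

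From lanosterol to cholesterol, 7 of 8 listed genes were measured, and 4 had a positive and 3 a negative difference in KO against WT. Tm7sf2, a sterol reductase, had a probe detected on 0 arrays (lowest detection p 0.120). Hsd17b7, which reduces the sterol ketone left after demethylation, read 9.42, 9.50, 9.64 and 9.74 in KO, 9.51, 9.43 and 9.37 in HET and 9.62, 9.89, 9.60, 9.91 and 9.79 in WT. All 3 HET arrays lay below all 5 WT arrays, and KO overlapped both, with KO 3 and KO 4 inside the WT range. HET minus WT was -0.33 (SE 0.10, 95% interval -0.56 to -0.10), a fold of 0.795, with a limma unadjusted p of 0.00756 and an adjusted p of 0.5. KO minus WT was -0.19 (SE 0.10, adjusted p = 1), the smallest p of any member in that contrast. It had the same sign in all 24 alternatives, of which the authors' values and no background correction gave the same numbers, between -0.24 and -0.14.

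Nsdhl, the dehydrogenase that removes the carboxyl group, had 4 detected probes, and its brightest read 7.50, 7.83, 7.90 and 7.83 in KO, 7.77, 8.49 and 7.46 in HET and 7.77, 7.38, 7.87, 7.93 and 7.17 in WT. HET 6 was the highest array and WT 12 the lowest, and the groups overlapped, so that KO minus WT was 0.14 with an SE of 0.21 (limma adjusted p = 1). HET 6 was also highest on the next 2 Nsdhl probes by mean level, at 8.10 and 6.56, but not on the dimmest. Its probes gave differences of unequal sign in all 3 contrasts.

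Ebp, a sterol isomerase, read 8.54, 8.94, 8.82 and 8.80 in KO, 8.59, 8.27 and 8.67 in HET and 8.38, 8.60, 8.71, 8.78 and 8.65 in WT. HET 6 was the lowest array and KO 2 the highest, and HET 5 and HET 7 lay inside the KO range. KO minus HET was 0.27 (SE 0.13, limma adjusted p = 0.657), or 0.14 without HET 6. Sc5d, a sterol desaturase, read 5.09, 5.50, 5.75 and 5.58 in KO, 5.27, 5.84 and 5.87 in HET and 5.52, 5.79, 5.77, 5.75 and 5.56 in WT. KO 1 was the lowest array, and KO minus WT was -0.20 (SE 0.15) with all arrays and -0.07 without KO 1.

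Cyp51, lanosterol demethylase, averaged 8.55 ± 0.09 in KO, 8.60 ± 0.40 in HET and 8.48 ± 0.21 in WT, and Msmo1, the methylsterol oxidase that follows it, averaged 9.87 ± 0.16 in KO, 9.99 ± 0.37 in HET and 9.87 ± 0.17 in WT. Dhcr7, which makes the last reduction, averaged 7.92 ± 0.19 in KO, 7.91 ± 0.32 in HET and 7.91 ± 0.28 in WT, with differences of 0.01, 0.00 and 0.00 in KO against WT, HET against WT and KO against HET. HET 6 was the highest array for all 3 of these genes, at 9.07, 10.31 and 8.28. Their limma adjusted p-values in KO against WT were 1.

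SREBP and its partners set the output of the pathway, and all 5 listed genes were measured. Insig1, which retains the SCAP complex and is itself a sterol-regulated target, read 7.56, 7.79, 7.80 and 7.83 in KO, 7.58, 8.45 and 8.03 in HET and 7.97, 7.34, 7.62, 7.81 and 7.11 in WT. It was the most variable member, with an SD of 0.34 over the 12 arrays, more than 90.8 percent of all genes, and HET 6 and WT 12 were its extremes. HET minus WT was 0.45 (SE 0.21, 95% interval 0.01 to 0.90) with a limma unadjusted p of 0.0459 and an adjusted p of 0.5, and it was 0.24 without HET 6 and, with HET 5 as the only HET array, -0.10 without WT 12, HET 6 and HET 7. A second Insig1 probe was also highest in HET 6, at 8.08, while the dimmest gave a HET minus WT difference of the opposite sign.

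Srebf1, the SREBP form tied to fatty acid genes, read 6.16, 6.03, 6.24 and 6.28 in KO, 6.02, 6.45 and 5.48 in HET and 5.98, 5.96, 6.11, 6.06 and 5.67 in WT. HET 6 was the highest and HET 7 the lowest array, so the HET group alone spanned the whole range, and 3 KO arrays lay above all WT arrays. KO minus WT was 0.22 (SE 0.16, limma adjusted p = 1), with each KO array above the WT mean of 5.96. Srebf2, the form tied to cholesterol genes, averaged 9.26 ± 0.02 in KO, 9.20 ± 0.24 in HET and 9.23 ± 0.08 in WT. Scap read 7.80, 7.86, 8.27 and 8.11 in KO, 8.00, 8.14 and 8.30 in HET and 8.30, 8.14, 8.08, 8.31 and 8.00 in WT, with KO 1 and KO 2 below every other array, and KO minus WT was -0.16 (SE 0.12) or -0.09 without KO 1 and -0.25 without KO 3. A second Scap probe of similar brightness read 7.92, 7.76, 7.87 and 7.65 in KO, 8.04, 7.60 and 7.67 in HET and 7.84, 7.95, 7.94, 7.93 and 7.79 in WT, with KO 1 amid the other arrays and HET 6 lowest.

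Insig2, the second retention protein, averaged 9.00 ± 0.10 in KO, 9.15 ± 0.30 in HET and 9.06 ± 0.19 in WT on its brighter probe, within 8.78 to 9.38 on all arrays. Its other detected probe read 9.10, 9.15, 6.44 and 6.40 in KO, 6.29, 9.39 and 10.31 in HET and 6.37, 6.22, 9.31, 9.07 and 6.63 in WT. That probe thus had 2 levels with a gap of 2.43 between them, the upper one on KO 1, KO 2, HET 6, HET 7, WT 10 and WT 11, and both levels occurred in every group. A gap of at least 2 with 3 or more arrays on each side was seen for 35 of 20170 detected probes (0.174 percent), and this was the only 1 of 36 detected member probes. The 2 probes gave KO minus WT differences of opposite sign.

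**Figure D3:**
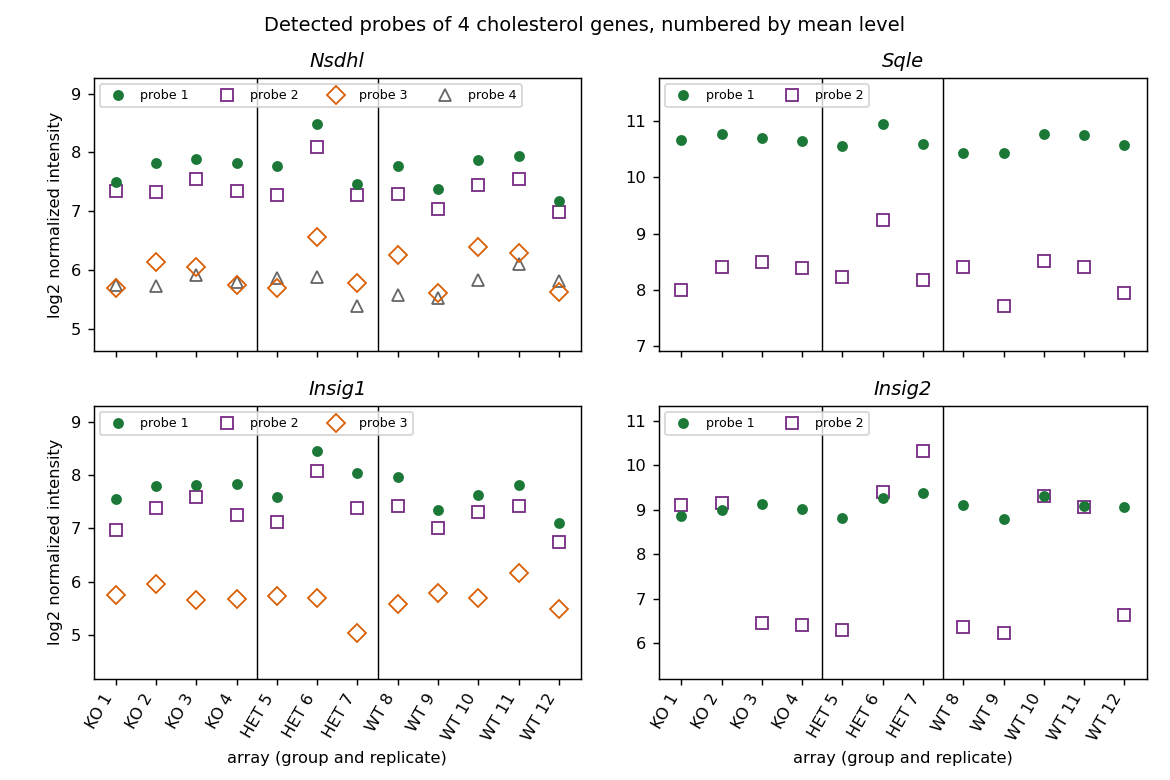
Log2 normalized intensity of every detected probe of Nsdhl, Sqle, Insig1 and Insig2 on each array, KO, HET and WT from left to right, with probes numbered by mean level, which is not comparable between probes. HET 6 is highest on 3 of 4 Nsdhl probes and on both Sqle probes, and the second Insig2 probe has 2 levels, 6.22 to 6.63 and 9.07 to 10.31.

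Uptake and intracellular transport were represented by 4 genes, all measured. Stard4, a soluble sterol carrier, read 8.18, 8.29, 8.41 and 8.37 in KO, 8.13, 7.89 and 7.96 in HET and 8.11, 8.25, 8.39, 8.60 and 8.07 in WT. Every KO array lay above every HET array, HET 5 being close to KO 1, and WT arrays ranged from below HET 5 to above all KO arrays. KO minus HET was 0.32 (SE 0.13, 95% interval 0.04 to 0.59) and HET minus WT was -0.29 (SE 0.12, 95% interval -0.56 to -0.03), with limma adjusted p-values of 0.657 and 0.5. Npc2, which passes cholesterol out of lysosomes together with Npc1, read 6.04, 6.27, 5.95 and 5.84 in KO, 6.00, 5.75 and 5.74 in HET and 5.83, 6.46, 6.41, 6.00 and 5.96 in WT. HET 6 and HET 7 were its lowest arrays and WT 9 and WT 10 its highest, and HET minus WT was -0.30 (SE 0.15, adjusted p = 0.507).

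Npc1, the lysosomal membrane partner, averaged 10.40 ± 0.02 in KO, 10.39 ± 0.25 in HET and 10.44 ± 0.14 in WT, with the 4 KO arrays within 10.38 to 10.43. Scarb1, the receptor that takes cholesteryl ester from high density lipoprotein, averaged 6.84 ± 0.13 in KO, 7.03 ± 0.37 in HET and 6.93 ± 0.23 in WT. On this brighter probe the lowest arrays were WT 11, KO 1 and HET 5, at 6.64, 6.67 and 6.72. KO 3 read 6.85 on it, near the median of 6.86, and the highest arrays were HET 6 and WT 8, at 7.44 and 7.26. A dimmer second Scarb1 probe was lowest in KO 2, at 5.01. It read 5.32 in WT 11, 5.33 in KO 1 and 5.48 in HET 5, against a median of 5.38. Leydig cell markers, 4 of 9 measured (Star, Cyp11a1, Cyp17a1 and Insl3), had their mean lowest on HET 5 and low on KO 3, WT 11 and KO 1: relative to the WT mean it was -0.79, -0.32, -0.82 and 0.20 in KO, -1.05, 0.04 and 0.01 in HET and 0.44, 0.20, 0.12, -0.81 and 0.04 in WT. Star, Cyp11a1 and Cyp17a1 were each lowest on HET 5, whereas Insl3 was lowest on HET 6, at 9.90. Insl3 read 10.76 in KO 1, against a WT mean of 10.69. Hsd3b1, Hsd3b6 and Fdx1 were detected on 0 arrays. The part of Leydig cell content in the Scarb1 levels was not tested.

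Abcg1, which exports cholesterol to lipoprotein, was the only efflux or esterification gene measured and read 6.24, 6.29, 6.00 and 6.02 in KO, 6.56, 6.03 and 5.64 in HET and 5.99, 6.21, 5.76, 6.20 and 5.72 in WT. HET 5 was its highest array and HET 7 its lowest, so that the groups overlapped, and KO minus WT was 0.16 (SE 0.17, limma adjusted p = 1). Abca1, the pump that loads apolipoprotein, had a probe detected on 0 arrays (lowest detection p 0.479). Soat1, which esterifies cholesterol, was not analysed here.

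**Figure D4:**
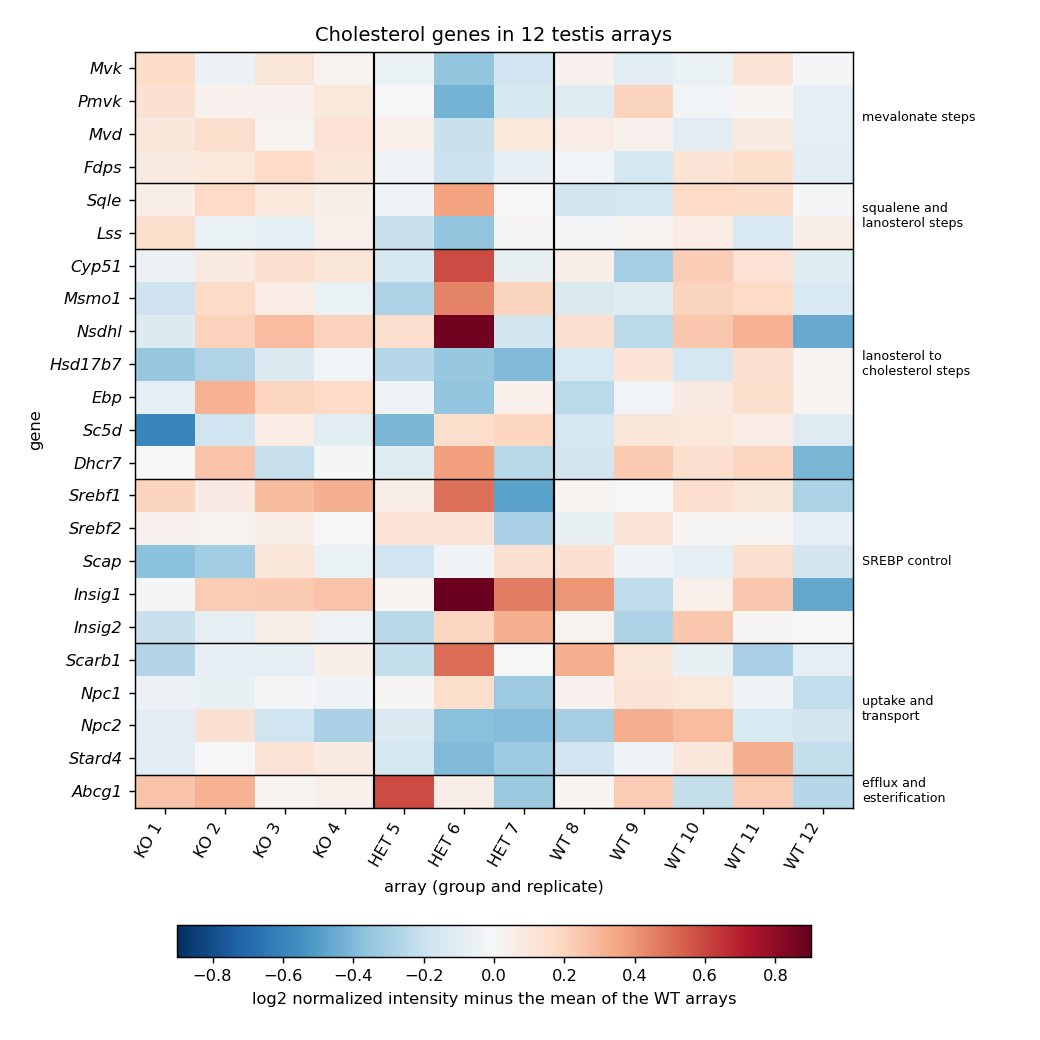
Level of each measured cholesterol gene (rows, by role) on each array (columns, KO, HET and WT from left to right), as the log2 difference from the mean of the 5 WT arrays. HET 6 is blue for the 4 mevalonate genes and red for Cyp51, Msmo1, Nsdhl, Srebf1, Insig1 and Scarb1.

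HET 6 was an extreme for more members than any other array, as it was over all genes. HET 6 was the lowest of 12 arrays for 7 members (Mvk, Pmvk, Mvd, Fdps, Lss, Ebp and Stard4) and the highest for 10 (Sqle, Cyp51, Msmo1, Nsdhl, Dhcr7, Srebf1, Srebf2, Insig1, Scarb1 and Npc1). This made it an extreme for 17 of 23 members (73.9 percent), against 5650 of all 11076 genes (51.0 percent). By position in the pathway, all 4 mevalonate genes were lowest in HET 6, as 25.8 percent of all genes were. From lanosterol onward 4 of 7 genes were highest there, as 25.2 percent of all genes were, and Ebp was lowest. In HET 6 the mean of the mevalonate genes was -0.29 relative to WT, that of the lanosterol to cholesterol genes 0.25 and that of the SREBP control genes 0.33. Under 3 other normalizations, with the same probe per gene, the first stayed between -0.23 and -0.22 and the second between 0.22 and 0.33. The third stayed between 0.27 and 0.42. Other probes of the SREBP control genes were divided. The second probes of Srebf2 and Scap were lowest in HET 6, at 6.95 and 7.60. The dimmest detected Insig1 probe read 5.70 there, against a WT mean of 5.74. The second Insig1 probe was highest there, at 8.08, and the second Insig2 probe was on its upper level, at 9.39.

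HET 7 and WT 12 differed from the other 9 arrays in part the opposite way from HET 6 and in part the same way. Mvk, Pmvk, Npc2 and Stard4 lay below the range of the other 9 arrays in HET 6 and HET 7, Stard4 also in WT 12. Msmo1, Sc5d and Insig1 lay above it in HET 6 and HET 7, Msmo1 in HET 7 only beyond the second decimal. The share of all genes placed on the same side in this way was not counted. Of 23 members, 4 (Dhcr7, Srebf1, Srebf2 and Npc1) lay above the range of the other 9 arrays in HET 6 and below it in both HET 7 and WT 12, which 6.64 percent of all genes did in this or the mirrored form. For Srebf2, HET 6 and WT 12, at 9.34 and 9.16, lay past that range only beyond the second decimal, and its second probe was lowest in HET 6, at 6.95. The second Npc1 probe read 6.82 in HET 6, inside the range of the other arrays. Dhcr7 read 8.28 in HET 6, against 7.66 in HET 7, 7.50 in WT 12 and 7.70 to 8.16 elsewhere. Srebf1 read 6.45 in HET 6, against 5.48 in HET 7, 5.67 in WT 12 and 5.96 to 6.28 elsewhere. In WT 12, 8 members lay below the range of the other 9 arrays (34.8 percent, 16.4 percent of all genes) and 0 above it (20.0 percent of all genes). These 3 arrays are those on which the meiotic markers stood apart, low in HET 6 and high in HET 7 and WT 12.

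KO 1 read many members lower than the other KO arrays did. The mean of all 23 members relative to WT was -0.06, 0.05, 0.06 and 0.05 in KO, -0.07, 0.09 and -0.09 in HET and -0.02, -0.00, 0.07, 0.10 and -0.15 in WT. KO 1 was thus apart from its own group, although HET 5, HET 7 and WT 12 lay lower still. The low KO 1 mean was known when the members were chosen, so the values of KO 1 are a description. KO 1 was the lowest of the 4 KO arrays for 12 of 23 members (52.2 percent), against 21.5 percent of all genes. It was the highest of them for 3 members, against 29.6 percent of all genes. Of the lanosterol to cholesterol genes 6 of 7 were lowest in KO 1, with a mean of -0.20 against 0.04 to 0.08 in the other KO arrays, while the mevalonate genes averaged 0.12 in KO 1, the highest of all 12 arrays. Scaling arrays to the same median, which placed the median of all genes at -0.12 in KO 4 and -0.19 in HET 7 relative to WT, put KO 1 at -0.01 and made KO 4 the lowest KO array at -0.08, but left the KO 1 mean of the lanosterol to cholesterol genes at -0.14. Without KO 1 the median member difference in KO against WT was 0.06, compared with 0.03 with it, and 0 members had an unadjusted limma p under 0.05.

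**Figure D5:**
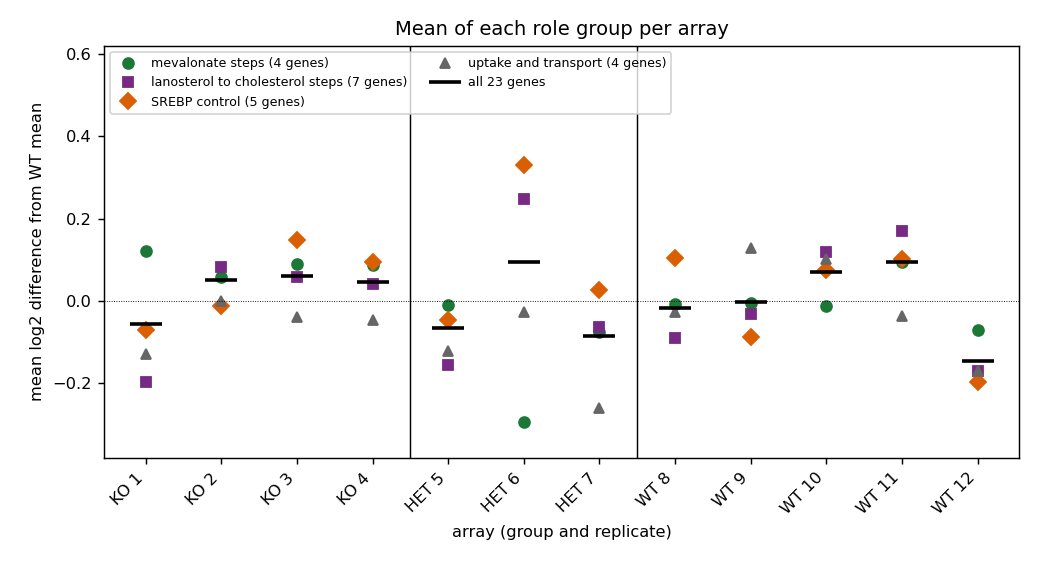
Mean log2 difference from the WT mean of the genes of 4 role groups, and of all 23 measured genes (black bars), on each array, KO, HET and WT from left to right. HET 6 holds both the lowest mevalonate mean (-0.29) and the highest SREBP control mean (0.33), and KO 1 has the lowest lanosterol to cholesterol mean (-0.20).

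The members' median SD over the 12 arrays was 0.190, against 0.184 over all genes, and ranged from 0.11 for Mvd and Srebf2 to 0.34 for Insig1 and Nsdhl. After these came Abcg1 and Srebf1, with 0.26 each.

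Other genes of lipid and sterol metabolism give the setting of the members. Of 43 further listed genes 30 were measured, and 0 passed the adjusted limma threshold in any contrast. At an unadjusted p under 0.05 there were 1, 3 and 1 in KO against WT, HET against WT and KO against HET. The shares over all genes were 2.56, 9.77 and 7 percent in the same order. The pathway genes named next are those of smallest p in each contrast. Scd2, a stearoyl-CoA desaturase, read 8.92, 8.75, 8.99 and 8.66 in KO, 8.91, 9.29 and 8.56 in HET and 8.71, 8.56, 8.44, 8.51 and 8.19 in WT. KO minus WT was 0.35 and HET minus WT was 0.44 (SE 0.14 and 0.16, limma adjusted p = 1 and 0.5), and all 4 KO arrays lay above WT 9 to WT 12. Without HET 6 the HET minus WT difference of Scd2 was 0.26. Lrp8, a receptor of apolipoprotein E, differed by 0.41 in HET against WT and -0.42 in KO against HET (adjusted p = 0.5 and 0.657), or 0.26 and -0.27 without HET 7. Lipe, hormone-sensitive lipase, differed by -0.24 and 0.23 in the same contrasts on its brighter probe, detected on 10 arrays. A second Lipe probe, detected on 8 arrays, averaged 5.16 in KO, 5.28 in HET and 5.37 in WT. Its KO minus HET difference thus had the opposite sign. Vldlr and Lrp1, further lipoprotein receptors, differed by 0.36 and -0.19 in KO against WT, and Scd1 by -0.74 in KO against HET, with adjusted p-values of 1 in KO against WT and 0.657 in KO against HET. Without WT 12 Vldlr differed by 0.24, without KO 3 Lrp1 differed by -0.10 and without WT 9 by -0.13. Scd1 differed by -0.36 without HET 5, its highest array at 7.45. Adipoq, the only adipocyte marker measured of 7 listed, was also highest in HET 5, at 5.99, and differed by -0.51 in KO against HET and 0.69 in HET against WT (limma adjusted p = 0.657 and 0.5). Its part in the Scd1 difference was not tested.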

How the data were processed

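Total RNA of 12 whole testes was amplified, biotinylated and hybridised to Illumina MouseWG-6 v2 BeadChips, per the labels' protocols. The deposited unnormalized table holds, on a linear scale, the bead intensity of 45281 probes, each paired with a detection p-value, per the file headers. The authors' processed values are deposited as intensity on a linear scale with a median of 56.2, not centred, and quantile normalizing the other table gave the same values to within 4.87e-08 percent. They were used as an alternative. The scanner software and genome build are not given in the sources used here.

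Intensities were background-corrected by normexp from the detection p-values (offset 16) and quantile normalized to log2 values with limma's neqc (limma 3.58.1, R 4.3.3, the data.table package at 1.17.8). Figures were drawn with matplotlib 3.10.9 in Python 3.11.15. A probe was kept where its detection p was under 0.05 on 3 arrays or more (20170 probes). Of all probes, 34885 had 1 gene symbol in the platform annotation, 18 had several and 10378 had none, and 34807 matched the gene list of GRCm38.p6 by Entrez identifier, with 0 symbols changed. The kept probe of highest mean stood for each of 11076 genes. At the edge of the detection rule, the dimmest Npc1 probe was detected on 3 arrays and kept, and an Lss probe on 2 arrays was not. Of the 9 members with several kept probes, 4 in KO against WT, 3 in HET against WT and 3 in KO against HET had probes of opposite sign.

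All 12 arrays entered 1 limma model (lmFit, then eBayes), and groups were compared in it with Benjamini-Hochberg adjustment over all genes and a threshold of 0.05. The number of arrays limits the precision. No 2 arrays were duplicates, the highest correlation between arrays being 0.9946. The members and lists were chosen with earlier results of these data known. Members were all to be named, with every array's value for the 5 of smallest p in each contrast and the 4 of largest SD. Of other pathway genes the 3 of smallest p in each contrast were named. The procedure was tested on simulated data.

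Alternatives were no background correction, an offset of 50, median scaling, the authors' values, dim probes kept or filtered at 0.01, averaged probes per gene, each pair of groups fitted alone, a robust prior with an intensity trend, weighted arrays, the column number sets as a block, each array left out in turn, and WT 12, HET 6 and HET 7 left out together. Counts of members at an unadjusted p under 0.05 without single arrays, and the search for probes with 2 levels, were added after seeing the data.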

Additional observations from a re-analysis of the deposited data

Results flagged for a closer look

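Insig1 in KO 1 read 7.56 on the log2 scale, while the other 3 KO arrays read 7.79 to 7.83, a gap that was large for the range of the group. The mean of all 23 cholesterol genes in KO 1 was -0.055 relative to WT, against 0.047 to 0.061 in the other KO arrays. The mean of the lanosterol to cholesterol genes in KO 1 was -0.20, against 0.04 to 0.08, and the mean of the 13 measured synthesis enzymes was -0.052, against 0.057 to 0.073. The last 3 values share genes, and the low KO 1 mean was known when the members were chosen. Outside the members, Scd1 in KO 2 read 6.70, against 5.64 to 5.80 in the other KO arrays. The adipocyte marker Adipoq read 5.60 in KO 2, against 4.63 to 4.99 in the other KO arrays, and its part in the Scd1 level was not tested. In all 72 group and value pairs were examined and 5 stood out. Chance marks about 1 in 20 of separate values. Several of these values share genes and the low KO 1 mean was known, so that rate does not apply to them.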

How the results depend on the processing

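No paired analysis was possible because the groups share no replicate numbers. No member passed the adjusted threshold under any of the 24 alternatives in any contrast, of which the authors' values and no background correction were identical. With median scaling the mean of all members was 0.12 in KO 3, -0.077 in KO 4 and -0.23 in HET 7. Averaging a gene's probes turned Fdps in KO against WT to -0.062, by including its dimmer probe. Without WT 12, HET 6 and HET 7, which leaves HET 5 as the only HET array, 2 genes passed in KO against WT, and Insig1 in HET against WT was -0.10. Leaving out 1 array at a time, the genes passing numbered 0 to 173 in HET against WT and 0 to 62 in KO against HET, both highest without HET 5 and none of them members. The median member difference ran from 0.02 to 0.08 in KO against WT, from -0.09 to 0.01 in HET against WT, and from -0.059 (without HET 7) to 0.12 in KO against HET. The causes were not tested. All HET values rest on 3 arrays of which 2 stood apart. Members near the background, such as Mvk and Sc5d, have compressed differences, and single probes carry most members.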

Other observations

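Probes of other genes of this pathway also had 2 levels, and these were noticed after their values were seen. Lipa, the lysosomal lipase that frees cholesterol from lipoprotein, read 7.18, 7.44, 4.33 and 4.41 in KO, 7.19, 7.52 and 4.33 in HET, and 4.35, 7.18, 4.32, 7.16 and 4.32 in WT on its brighter probe. Its upper level lay on KO 1, KO 2, HET 5, HET 6, WT 9 and WT 11. A second Lipa probe split the same arrays, reading 5.52 to 5.95 on these 6 and 4.64 to 4.80 on the others. Osbp, an oxysterol-binding protein, read 7.17, 7.38, 4.60 and 4.77 in KO, 7.05, 4.80 and 4.53 in HET, and 4.90, 7.08, 4.67, 4.59 and 4.63 in WT. Its upper level lay on 4 arrays, KO 1, KO 2, HET 5 and WT 9, all of which were also at the upper level of Lipa. In each case both levels occurred in KO, HET and WT. The members' second Insig2 probe split the arrays in another way. Of 49 detected probes of the other pathway genes 2 had a gap of at least 2, against 0.174 percent of all detected probes. What the split arrays share was not tested.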
